A study of Mus musculus with 75 samples.

Results

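The 10 genes described here encode proteins that hold endothelial cells together, form the diaphragms of their fenestrae and caveolae, or mark the endothelium of kidney capillaries, namely Pecam1, Cdh5, Esam, Cldn5, Plvap, Emcn, Eng, Robo4, Egfl7, and Ehd3. They were chosen by symbol, and each has 1 row in a table of 32245 genes. All 10 passed the filter on low counts in each of 3 arms of the study, and they were followed across 75 whole-kidney libraries in 12 groups.

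Endothelial cells join at adherens junctions, where the cadherin of Cdh5 binds its like on the neighboring cell, and at tight junctions, which claudins seal. Most peritubular capillaries of the kidney are fenestrated, and a diaphragm built from the product of Plvap spans each fenestra, whereas the fenestrae of mature glomerular capillaries lack it. Signaling through TIE2, the endothelial receptor of the angiopoietins, is known to stabilize these junctions, and VEPTP, a phosphatase encoded by Ptprb, counteracts it.

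In unilateral ureteral obstruction (UUO) 1 ureter is ligated, and the kidney of the other side (CL, contralateral) is left unobstructed for comparison. All kidneys came from adult mice 3 days after the operation. In the first arm, C57BL6/J mice or WT mice from the breeding received either ABTAA (ABT), an antibody that binds ANGPT2 and activates TIE2, or a human IgG Fc control (IgG), with 8 IgG CL, 8 IgG UUO, 7 ABT CL, and 7 ABT UUO libraries. In the second arm, mice with floxed Veptp (Ptprb) and a tamoxifen-inducible Cre under the Cdh5 promoter were induced to delete the gene in endothelium (VeKO, 6 CL and 8 UUO libraries), and their controls were noninduced Veptp wt/lox littermates that carried the same Cre (VeWT, 7 CL and 8 UUO libraries). Cdh5, whose promoter drove the Cre in both groups of that arm, is itself 1 of the 10 genes. In the third arm, floxed Pdgfb was deleted in the whole body with a tamoxifen-inducible Actb-Cre (PbKO), and the controls were Cre-negative wt/lox or lox/lox littermates (PbWT), with 4 libraries in each of the 4 groups. The PbWT CL group includes kidneys from sham-operated mice, which carry no mark in the labels. VeWT has more UUO libraries than the methods list mice of that genotype, and all 8 were used. Apart from numbers shared in part of the library names, the labels do not tie a CL kidney to its UUO partner, so p-values measure the spread between libraries, and in whole-kidney RNA fewer endothelial cells and less RNA per endothelial cell cannot be told apart.

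Library totals lay between 172827 and 2341800 counts with a median of 757897, and the counts behind 1 gene in 1 library were low, with a median over libraries between 10 for Robo4 and 57 for Egfl7. Robo4 had no count in 3 libraries and Cldn5 in 1. Levels are given as CPM, the count scaled to a common library total after the total was multiplied by its TMM factor, a normalization that assumes most genes unchanged. Ptprb lay between 27.0 and 45.3 CPM in VeKO CL kidneys and between 28.6 and 84.4 CPM in VeWT CL kidneys, with ranges of 12.7 to 66.3 and 26.2 to 93.6 CPM after UUO. Pdgfb was not lower in the CL kidneys labelled PbKO, at 16.7 to 25.0 CPM against 4.45 to 19.9 CPM in PbWT, and after UUO it lay between 33.5 and 40.6 CPM against 43.0 to 57.5 CPM. Which part of Pdgfb the counts cover was not known, and the comparisons of the third arm below describe libraries labelled PbKO and PbWT. Library names came in 2 forms, plain names such as B4 (45 libraries) and split names such as G_3 (30 libraries), and the sources do not say what the forms stand for. At least 10 counts of Xist together with at least 10 of 4 Y-linked genes were present in 22 libraries with plain and in 2 with split names, including 4 of 4 UUO libraries labelled PbKO. In the Veptp arm, the numbers 3, 4, 7, and 8 in split names stand for opposite genotypes in the CL and UUO libraries. Over all genes, the CL and UUO libraries of each of these 4 numbers deviated from their group means together (r between 0.128 and 0.426), and whether the labels or the numbers are in error was not tested, which bears on each comparison of VeKO and VeWT.

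The stretches before the starts of Eng, Emcn, and Ehd3 are shown because Eng rose with UUO in IgG and PbWT mice, whereas Emcn and Ehd3 fell in VeKO mice. They are from RefSeq on the plus strand of GRCm38.p6, 5′ to 3′, and capitals mark AGGAAG or its reverse CTTCCT, a core of binding sites of ETS factors.
Eng, chr2:32646345-32646594: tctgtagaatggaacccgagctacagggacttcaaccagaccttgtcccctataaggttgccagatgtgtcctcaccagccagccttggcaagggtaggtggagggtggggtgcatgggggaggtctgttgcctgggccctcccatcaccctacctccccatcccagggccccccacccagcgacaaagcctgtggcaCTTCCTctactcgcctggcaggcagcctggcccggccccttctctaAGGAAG
Emcn, chr3:137340828-137341061: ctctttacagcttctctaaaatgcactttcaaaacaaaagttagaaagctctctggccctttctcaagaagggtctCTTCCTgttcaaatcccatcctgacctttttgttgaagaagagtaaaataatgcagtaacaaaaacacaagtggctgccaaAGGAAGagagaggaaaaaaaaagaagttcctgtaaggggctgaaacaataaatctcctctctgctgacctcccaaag
Ehd3, chr17:73804591-73804840: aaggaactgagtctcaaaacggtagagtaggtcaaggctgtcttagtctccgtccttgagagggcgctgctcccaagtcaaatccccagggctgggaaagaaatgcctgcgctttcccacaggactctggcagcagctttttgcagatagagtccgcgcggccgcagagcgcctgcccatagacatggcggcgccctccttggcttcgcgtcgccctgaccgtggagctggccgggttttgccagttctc
Windows were the 250 bases before a RefSeq transcript start, in which Eng and Emcn each held 2 copies and Ehd3 none. The reference has 8 windows for 6 of the members, 3 of them for Egfl7, and 5 of the 8 held the motif, against 29.5% of 32851 windows of the same length in the reference. Cldn5 held none, and the match of Robo4 lies inside the annotated gene, so 3 of the 6 members (Egfl7, Eng, and Emcn) held the motif before the gene itself. A match is a description of the sequence, and the letters do not show that a factor was bound there.

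**Figure D1:**
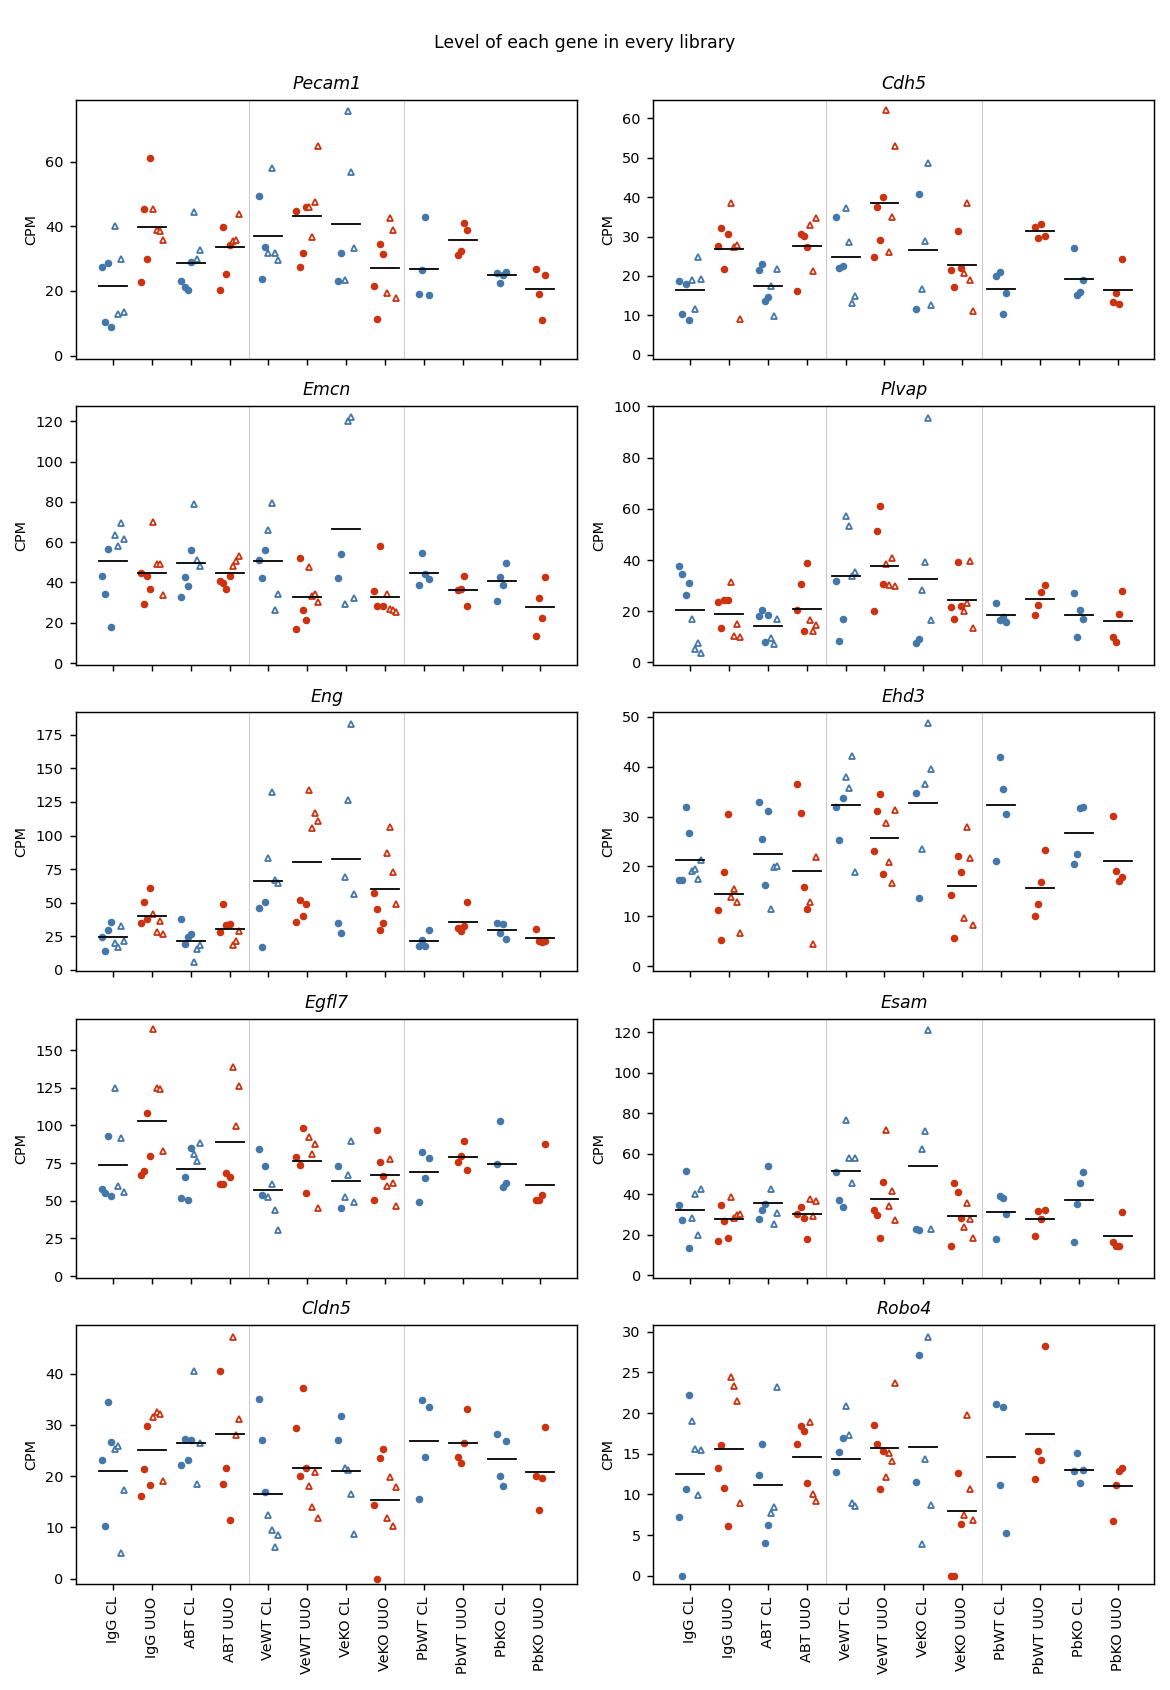
Level of each of the 10 genes in each of the 75 libraries, in CPM on the y axis, by genotype and kidney on the x axis, with CL in blue and UUO in red. Filled circles are libraries with plain names, open triangles those with split names, and black bars are group means. Cdh5 in the PbWT kidneys is the only gene whose UUO libraries (29.6 to 33.1 CPM) all lie above the CL libraries (10.3 to 21.0 CPM) of the same genotype, which held for 16.5% of the 10923 genes tested in that arm.

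UUO was compared with CL kidneys within each genotype to ask whether obstruction changed these genes. In IgG-treated mice 3 of the 10 members rose (Pecam1, Cdh5, and Eng), where 16.3% of the 9579 genes tested rose, and no member fell, where 18.2% of all genes fell. In ABTAA-treated mice 1 of 10 rose (Cdh5), against 12.6% of all genes, and no member fell, against 12.5%. In VeWT mice no member rose or fell in edgeR's quasi-likelihood test, where 10.0% of 11916 genes rose and 8.38% fell, and 2 members had an unadjusted p under 0.05. DESeq2 and edgeR's exact test also called no member there, whereas 1 member rose in the fit of all 12 groups (Cdh5, edgeR adjusted p = 0.0425), without TMM (Egfl7, edgeR adjusted p = 0.0491), with a covariate for the name form (Egfl7, edgeR adjusted p = 0.0418), and in split names alone (Egfl7, edgeR adjusted p = 0.0409). In VeKO mice 2 of 10 fell (Emcn and Ehd3), against 3.48% of all genes, and no member rose, against 4.47%. Both of these calls were lost in the exact test (edgeR adjusted p = 0.0649 for Emcn and 0.0591 for Ehd3) and without TMM (edgeR adjusted p = 0.0722 and 0.105). In PbWT mice 2 of 10 rose (Cdh5 and Eng), against 17.9% of 10923 genes, and 1 fell (Ehd3), against 19.4%. Without TMM, where the median of all genes moved by 0.37, 5 of 10 rose in PbWT mice (Cdh5, Eng, Pecam1, Egfl7, and Plvap), against 40.8% of all genes, and Ehd3 fell, against 10.6%. In mice labelled PbKO no member passed edgeR's quasi-likelihood test, where 3.95% of all genes rose and 2.42% fell, 1 member had an unadjusted p under 0.05, and DESeq2 and the exact test called none. Rose and fell stand for an adjusted p under 0.05 by Benjamini-Hochberg over all genes tested in the arm.

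The median log2 fold change of the 10 members was 0.25 in IgG, 0.30 in ABT, 0.21 in VeWT, and 0.22 in PbWT mice, and it was -0.52 in VeKO and -0.30 in PbKO mice, while the median of all genes lay between -0.01 and 0.04 in these comparisons. In VeKO mice 9 of 10 members had a fold change below 0 and in PbKO mice 10 of 10. Without G_3, a VeKO CL library with high levels of the members, the VeKO median was -0.30 and 7 of 10 were below 0. With any 1 library of the arm left out it ranged from -0.66 to -0.30 in VeKO and from -0.50 to -0.17 in PbKO mice, where 8 to 10 members were below 0, and it was closest to 0 without A12. The control and deleted groups of an arm were fitted together, so their p-values share 1 estimate of the spread and these medians 1 TMM scale. Without TMM the median of all genes moved by 0.21 in IgG, 0.14 in ABT, 0.15 in VeWT, 0.11 in VeKO, and 0.37 in PbWT mice, and the changes given here are relative to the TMM scale. The split of calls over all genes moved with it, to 26.0% higher and 11.3% lower in IgG, 16.6% and 8.31% in ABT, 11.6% and 4.56% in VeWT, 5.14% and 2.03% in VeKO, and 5.19% and 1.39% in PbKO mice.

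**Figure D2:**
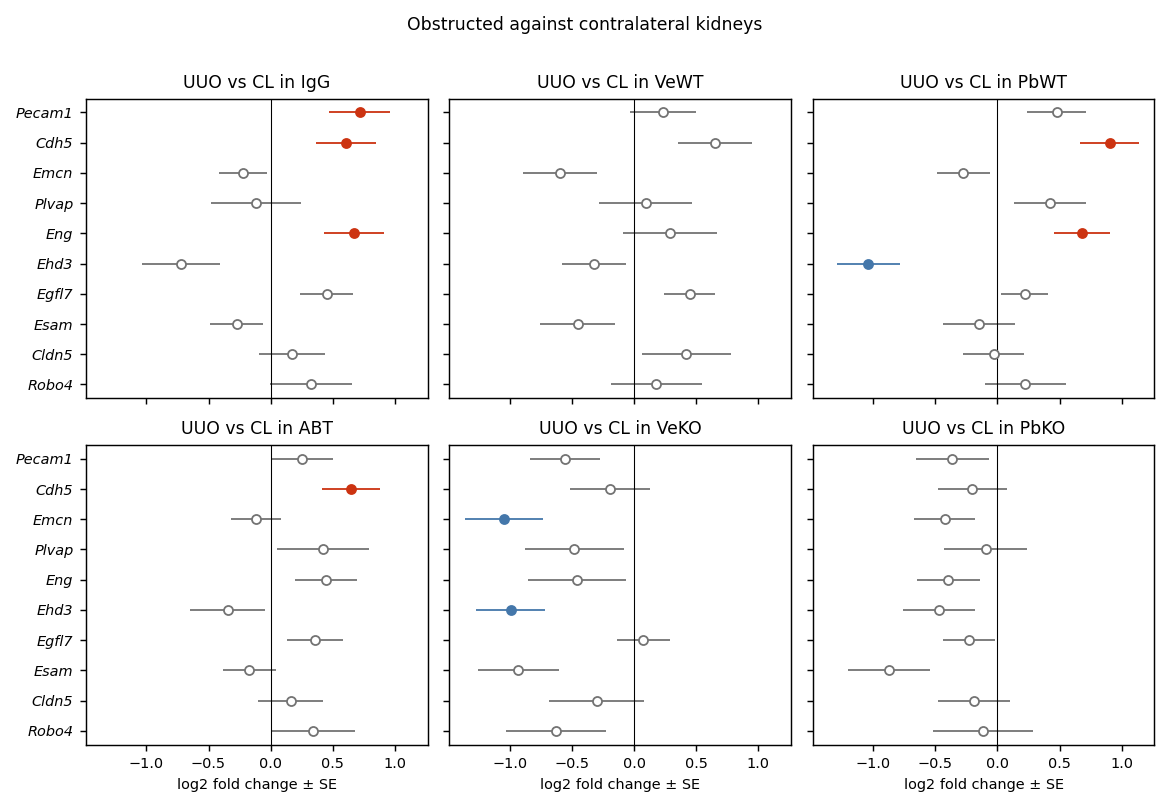
Log2 fold change of each gene in UUO over CL kidneys on the x axis, with its SE as bars, in 6 genotypes. Filled symbols passed an adjusted p under 0.05 (red higher, blue lower) and open grey ones did not. Cdh5 and Eng sit right of 0 in IgG and PbWT mice, and Ehd3 sits left of 0 in all 6 genotypes.

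Cdh5 encodes VE-cadherin, the adhesion molecule of the endothelial adherens junction (chromosome 8, 104101613 to 104144504, plus strand, GRCm38). In IgG mice it had its lowest, median, and highest level at 8.88, 18.4, and 24.9 CPM in CL kidneys and at 8.99, 27.7, and 38.5 CPM in UUO kidneys. Of the UUO libraries, P_8 at 8.99 CPM and H6 at 21.7 CPM lay below the highest CL library, and Cdh5 rose by a log2 fold change of 0.61 ± 0.24 (SE, n = 8 and 8, adjusted p = 0.0478). In ABT mice the levels were 9.92, 17.4, and 23.0 CPM in CL and 16.2, 30.0, and 34.7 CPM in UUO kidneys, a rise of 0.65 ± 0.24 (SE, n = 7 and 7, edgeR adjusted p = 0.0408). In PbWT mice the 4 CL libraries held 20.0, 21.0, 10.3, and 15.7 CPM and the 4 UUO libraries 32.4, 29.6, 33.1, and 30.2 CPM, which do not overlap. Cdh5 was the 1 member of 10 with all UUO above all CL libraries there, against 16.5% of all genes tested. There Cdh5 rose by 0.90 ± 0.24 (edgeR adjusted p = 0.00361), and this held with each library of the arm left out. In VeWT mice the levels were 13.1, 22.5, and 37.2 CPM in CL and 24.7, 36.1, and 62.0 CPM in UUO kidneys, a fold change of 0.65 ± 0.30 that did not pass (edgeR adjusted p = 0.138). In VeKO mice they were 11.6, 22.7, and 48.7 CPM in CL and 11.1, 21.2, and 38.6 CPM in UUO kidneys, and the groups overlapped throughout. The 4 CL libraries labelled PbKO held 27.0, 15.0, 15.9, and 19.0 CPM and the UUO libraries 13.4, 15.7, 12.8, and 24.2 CPM, with no shift that passed the test.

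The IgG and ABT calls of Cdh5 lie close to the threshold. Leaving out 1 library at a time took the IgG call away in 26 of 30 fits, with adjusted p up to 0.104, and the call was also lost in DESeq2, without a filter on low counts, and with all 12 groups in 1 fit. Leaving out 1 library took the ABT call away in 8 of 30 fits (without E6, F6, N_11, H5, G6, C7, O_9, or O_12), with adjusted p up to 0.0972. The ABT call was also lost in DESeq2 (adjusted p = 0.0744), without a filter on low counts (edgeR adjusted p = 0.104), and with all 12 groups in 1 fit (edgeR adjusted p = 0.0925). Within the forms of library name the log2 fold change in IgG mice was 0.83 in libraries with plain and 0.38 in those with split names, and in ABT mice 0.51 and 0.86, none of which passed the test. The split names of 3 CL and 3 UUO kidneys of ABTAA-treated mice carry the same numbers, 9, 11, and 12, and with the number as a replicate block Cdh5 had a fold change of 0.91 (edgeR adjusted p = 0.0388) and Egfl7 of 0.59 (edgeR adjusted p = 0.00842), so 2 members rose, against 1, Egfl7 at 0.61 (edgeR adjusted p = 0.0360), in the same 6 libraries without the block.

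Pecam1 encodes an immunoglobulin-type adhesion molecule of endothelial contacts that platelets and many leukocytes also carry (chromosome 11, 106654213 to 106715281, minus strand). Its lowest, median, and highest levels in IgG mice were 8.88, 20.5, and 40.2 CPM in CL and 22.8, 38.8, and 61.2 CPM in UUO kidneys. Pecam1 rose by 0.72 ± 0.24 in IgG mice (SE, edgeR adjusted p = 0.0202), with 0.67 and 0.68 in libraries with plain and split names taken alone, neither past the threshold. The call was lost without P_2 or P_4, with adjusted p up to 0.0575. Without the libraries that held both Xist and Y-linked counts, none of the 3 IgG calls remained (edgeR adjusted p = 0.0621 for Pecam1, 0.299 for Cdh5, and 0.117 for Eng), nor the ABT call of Cdh5 (edgeR adjusted p = 0.279). In PbWT mice the CL libraries held 18.9, 26.6, 42.9, and 18.9 CPM and the UUO libraries 31.2, 32.5, 41.0, and 39.0 CPM. The highest CL library lay above all UUO libraries, and the fold change of 0.48 ± 0.24 did not pass (edgeR adjusted p = 0.126). In VeKO mice Pecam1 was at 23.1, 32.5, and 75.9 CPM in CL and at 11.4, 26.5, and 42.6 CPM in UUO kidneys.

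Leukocyte markers rose beside Pecam1, Cdh5, and Eng. Of the 9 markers of a list of leukocyte and platelet genes 5 were tested in IgG mice, and these 5 rose, Itgam, Ptprc, Cd68, Adgre1, and Csf1r, none of which is a platelet marker, and the summed level of the list ran from 79.6 to 133 CPM in IgG CL and from 171 to 302 CPM in IgG UUO kidneys. In PbWT mice the sum ran from 66.8 to 97.6 CPM in CL and from 191 to 284 CPM in UUO kidneys, and of the 6 genes tested the same 5 and Pf4, a platelet gene, rose. The part of these cells in the level of Pecam1 was not tested.

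Esam and Cldn5 encode further junction proteins, an adhesion molecule of endothelial cells and platelets and a claudin of endothelial tight junctions (chromosome 9, 37528089 to 37538319, and chromosome 16, 18776847 to 18778262, both plus strand). Neither passed the test in any of the 6 comparisons of UUO with CL kidneys. Esam had its largest distance from 0 in VeKO mice, where CL kidneys lay at 22.6, 42.9, and 121 CPM and UUO kidneys at 14.3, 28.1, and 45.7 CPM, a fold change of -0.93 ± 0.33 (SE, edgeR adjusted p = 0.0746). Esam was called lower with all 12 groups in 1 fit (edgeR adjusted p = 0.00807), with a covariate for the name form (edgeR adjusted p = 0.0159), and without libraries holding both Xist and Y-linked counts (edgeR adjusted p = 0.0143). In libraries with split names alone the fold change of Esam was -1.38 (edgeR adjusted p = 0.00812), and in those with plain names it was 0.58 (edgeR adjusted p = 0.834). In the kidneys labelled PbKO, Esam was at 16.7, 35.1, 45.4, and 50.9 CPM in CL and at 16.7, 14.6, 14.5, and 31.2 CPM in UUO libraries, with 3 of the 4 CL libraries above all UUO libraries. This fold change of -0.87 ± 0.33 did not pass (edgeR adjusted p = 0.126). Cldn5 had group means between 15.4 CPM in VeKO UUO and 28.3 CPM in ABT UUO kidneys.

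Plvap, the gene of the fenestral and caveolar diaphragm (chromosome 8, 71497753 to 71511806, minus strand), did not pass the test in any comparison of UUO with CL kidneys. In IgG mice it was at 3.86, 21.6, and 37.5 CPM in CL and at 10.1, 19.4, and 31.5 CPM in UUO kidneys, and in PbWT mice at 15.7, 17.3, and 23.4 CPM and at 18.7, 25.0, and 30.2 CPM. The groups overlapped in all 6 genotypes. The 95% interval of its log2 fold change ran from -0.86 to 0.63 in IgG and from -0.21 to 1.05 in PbWT mice, so a change of the size seen for Cdh5 in the same mice lies within each. Its level in IgG CL kidneys depended on the form of the library name, with 32.3 ± 4.82 CPM (SD, n = 4) in libraries with plain and 8.36 ± 5.90 CPM (SD, n = 4) in those with split names. Plvap overlaps Gtpbp3 on the other strand, and as the use of strand in the counting was not stated, reads of the pair cannot be told apart (1772 counts of Plvap and 847 of Gtpbp3 over all libraries).

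Emcn encodes endomucin, a sialomucin on the surface of capillary and venous endothelium (chromosome 3, 137341062 to 137431069, plus strand). In VeKO mice the 6 CL libraries had a lowest, median, and highest level of 29.3, 48.4, and 122 CPM and the 8 UUO libraries of 25.5, 28.5, and 58.3 CPM. Emcn fell by 1.05 on the log2 scale (SE 0.32, edgeR adjusted p = 0.0348). Libraries G_2 and G_3 were the high ones among the VeKO CL kidneys, at 120 and 122 CPM, and the other 4 lay between 29.3 and 54.3 CPM. Without G_3, without G_2, or without any of D8, H_1, H_2, H_7, and H_8, the call was lost, with adjusted p up to 0.154, and without the libraries numbered 3, 4, 7, and 8 the fold change was -0.81 (edgeR adjusted p = 0.334). In VeWT mice CL kidneys were at 26.2, 51.0, and 79.4 CPM and UUO kidneys at 17.0, 31.7, and 52.4 CPM, a fold change of -0.60 ± 0.30 (edgeR adjusted p = 0.182). In the other 4 genotypes the fold change lay between -0.42 and -0.12 and did not pass, and without TMM it turned positive in ABT and PbWT mice.

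Library G_3 was the highest of its group for 8 of the 10 members, with a summed level of the 10 genes of 812 CPM. G_2 followed with 601 CPM, and the other 4 VeKO CL libraries lay between 280.3 and 332 CPM. The same sum ran from 272 to 533 CPM in VeWT CL and from 215 to 418 CPM in VeKO UUO kidneys.

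Ehd3 encodes a membrane-shaping ATPase that, in the kidney, is known as a marker of glomerular endothelium (chromosome 17, 73804841 to 73832093, plus strand). Its fold change lay below 0 in all 6 genotypes, and it fell in VeKO and PbWT mice. In PbWT mice the CL libraries held 21.1, 41.9, 35.5, and 30.4 CPM and the UUO libraries 9.98, 12.4, 17.0, and 23.4 CPM, so the highest UUO library lay just above the lowest CL library. Ehd3 fell by 1.04 on the log2 scale (SE 0.26, edgeR adjusted p = 0.00233), which held with each library left out, and by 0.66 without TMM (edgeR adjusted p = 0.0313). In VeKO mice the levels were 13.6, 35.6, and 48.7 CPM in CL and 5.71, 16.6, and 27.9 CPM in UUO kidneys, a fall of 0.99 (SE 0.28, edgeR adjusted p = 0.0219). That call was lost without G_3, G_4, H_1, or H_8, and within the forms of library name the fold change was -0.49 with plain and -1.11 with split names, the latter past the threshold (edgeR adjusted p = 0.0245). Without the libraries numbered 3, 4, 7, and 8 it was -0.64 (edgeR adjusted p = 0.469). In IgG mice Ehd3 was at 17.2, 19.2, and 32.0 CPM in CL and at 5.35, 13.4, and 30.6 CPM in UUO kidneys, and the fold change of -0.72 ± 0.32 did not pass (edgeR adjusted p = 0.0761).

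Podocytes share the glomerulus with the endothelium that Ehd3 marks, and the summed level of 7 podocyte markers ran from 310.5 to 411 CPM in PbWT CL and from 280.0 to 356 CPM in PbWT UUO kidneys. In PbWT mice 3 of the 7 fell, against 19.4% of all genes, Clic5 and Podxl among them, and none rose, against 17.9%, while 4 of the 7 had a fold change above 0 and the median was 0.13. In VeKO mice the sum ran from 197 to 401 CPM in CL and from 166 to 413 CPM in UUO kidneys, and none of the markers passed the test. The part of podocyte or glomerular content in the level of Ehd3 was not tested.

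Eng encodes endoglin, a coreceptor for BMP9 and other ligands of the TGF-β family (chromosome 2, 32646595 to 32682669, plus strand). In IgG mice it was at 13.8, 22.9, and 35.5 CPM in CL and at 27.0, 37.2, and 61.2 CPM in UUO kidneys, a rise of 0.67 ± 0.24 (SE, edgeR adjusted p = 0.0296), with 0.76 for plain and 0.57 for split names, neither of which passed. This call was lost in 5 of the 30 fits that left out 1 library (A6, P_1, P_2, D6, or D7), with adjusted p up to 0.0611, and with all 12 groups in 1 fit. In PbWT mice the CL libraries held 17.8, 22.4, 17.7, and 29.4 CPM and the UUO libraries 31.2, 29.0, 32.8, and 50.7 CPM, with 1 CL library inside the range of the UUO libraries. Eng rose there by 0.68 ± 0.22 (edgeR adjusted p = 0.0190), a call lost in 3 of the 16 fits that left out 1 library, in DESeq2, and with all 12 groups in 1 fit. In the CL libraries labelled PbKO it was at 34.7, 27.6, 34.1, and 22.9 CPM and in the UUO libraries at 30.1, 21.3, 20.5, and 21.8 CPM. In the Veptp arm the level followed the form of the library name, with 86.8 ± 31.6 CPM (SD, n = 4) in VeWT CL libraries with split names and 37.9 ± 18.3 CPM (SD, n = 3) in those with plain names, and 109 ± 58.0 CPM (SD, n = 4) and 30.9 ± 5.31 CPM (SD, n = 2) in VeKO CL libraries. Eng overlaps Fpgs on the other strand (3685 and 3142 counts over all libraries), and their reads cannot be told apart without strand.

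Egfl7 encodes a secreted protein of the endothelial matrix and hosts Mir126a (chromosome 2, 26581083 to 26592682, plus strand), while Mir126b overlaps it on the other strand. Robo4 encodes a receptor of vascular endothelium that binds UNC5B (chromosome 9, 37401902 to 37414023, plus strand). Neither gene passed the test in the 6 comparisons. Egfl7 had group means between 57.2 CPM in VeWT CL and 103 CPM in IgG UUO kidneys, and its fold change was above 0 in 5 of the 6 genotypes. Robo4 had group means between 7.95 CPM in VeKO UUO and 17.4 CPM in PbWT UUO kidneys. Under 10 counts of Robo4 were present in 36 of 75 libraries, and the SE of its log2 fold change lay between 0.33 and 0.40 in the 6 comparisons. In IgG mice the confidence interval for Robo4 ran from -0.35 to 1.01, so a change of the size seen for Cdh5 in the same mice lies within it. Whether depth kept Robo4 from passing was not tested. Egfl7 overlaps Agpat2 on the other strand (4827 and 2747 counts).

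Where 2 members come from the same cells, their ratio within a library does not depend on the share of endothelial RNA in the kidney. As Ehd3 is known as a marker of glomerular endothelium, the glomerular share stays in its ratio to Cdh5, and this was not tested. The fold change of Cdh5 itself was 0.61 in IgG and 0.65 in VeWT mice, and Ehd3 alone did not pass in either. The log2 ratio of Ehd3 to Cdh5 (1 CPM added to each) was lower in UUO than in CL kidneys in IgG mice, with a difference of -1.32 (exact 2-sided permutation p = 0.00202, adjusted p = 0.0177 over 12 ratio tests) and in VeWT mice, with a difference of -0.96 (exact permutation p = 0.00295, adjusted p = 0.0177). The difference was -1.03 in ABT (exact permutation p = 0.0390, adjusted p = 0.117) and -0.94 in VeKO mice (exact permutation p = 0.0579, adjusted p = 0.139). It passed in ABT mice without G5 (-1.33, exact permutation, adjusted p = 0.0186) and in VeKO mice without B8 (-1.32, exact permutation, adjusted p = 0.0118). In PbWT mice it was -1.93, with a ratio of 0.91 ± 0.66 in CL and -1.02 ± 0.52 in UUO kidneys (SD, n = 4 and 4). These did not overlap, and the exact permutation p of 0.0286 is the smallest that 4 against 4 libraries can give (adjusted p = 0.114). In the kidneys labelled PbKO the ratio was 0.46 ± 0.58 in CL and 0.34 ± 0.62 in UUO (SD, n = 4 and 4, exact permutation p = 0.743). The ratio of Plvap to Cdh5 differed by -0.51 in PbWT, -0.48 in IgG, -0.34 in VeWT, -0.15 in ABT, -0.06 in PbKO, and 0.12 in VeKO mice, and none of these passed an exact permutation test (adjusted p between 0.286 and 0.886).

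**Figure D3:**
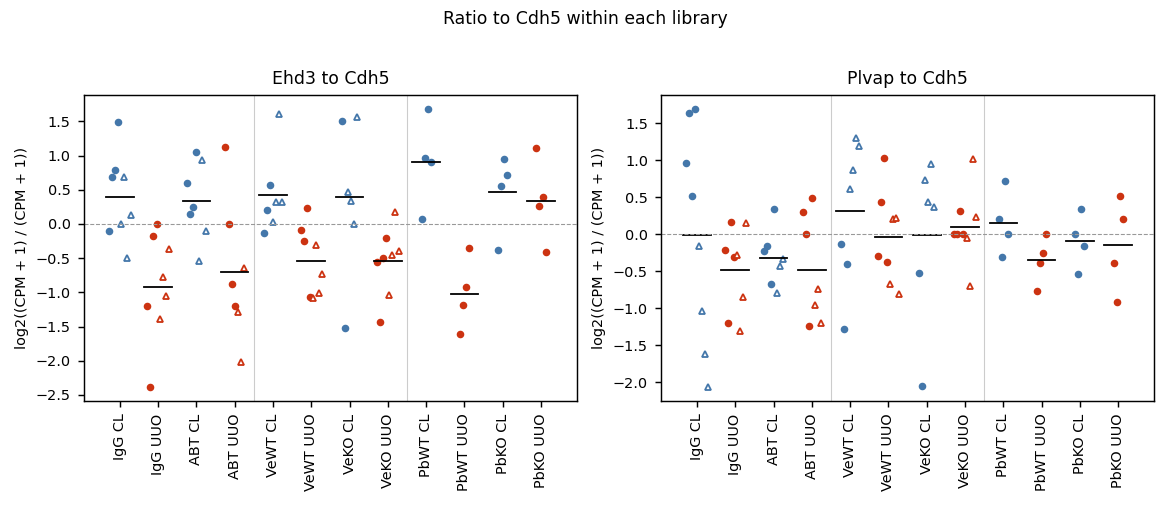
Log2 ratio of Ehd3 to Cdh5 and of Plvap to Cdh5 in each library on the y axis (1 CPM added to each level), by genotype, with CL in blue, UUO in red, and group means as black bars. The mean ratio of Ehd3 to Cdh5 was 0.91 in CL and -1.02 in UUO kidneys of PbWT mice and 0.46 and 0.34 in those labelled PbKO, and neither difference passed the test.

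The treated or deleted kidneys were next compared with their controls to ask whether TIE2 activation or loss of Pdgfb changed the 10 genes. In UUO kidneys of ABTAA-treated against IgG-treated mice, 0% of 9579 genes were called by edgeR's quasi-likelihood test and no member was. No member had an unadjusted p under 0.05, while 340 of all genes did, and DESeq2 and the exact test also called no gene. The fold changes of the members lay between -0.35 (Eng) and 0.46 (Ehd3), with 95% intervals that reached from -0.85 to 1.14. In CL kidneys of the same mice 0% of all genes and no member were called by edgeR, 303 genes and no member had an unadjusted p under 0.05, and DESeq2 and the exact test called none. The response to UUO, taken as the difference of the fold changes, was called for 0% of all genes and for no member by edgeR, with 315 genes and no member at an unadjusted p under 0.05, and DESeq2 called none. Intervals of the response reached from -1.17 to 1.61 over the members, so changes of the size of the UUO effects lie within them.

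In UUO kidneys of VeKO against VeWT mice all 10 members had a fold change below 0, with a median of -0.49 against 0.01 for all genes, but 0% of 11916 genes and no member passed edgeR's quasi-likelihood test. Cdh5 had a fold change of -0.75 ± 0.29, Pecam1 of -0.61 ± 0.26, and Ehd3 of -0.60 ± 0.26 (SE), and these 3 members, with 426 of all genes, had an unadjusted p under 0.05. DESeq2 called 1 gene and the exact test 4, none of them a member. Other lists lay below 0 as well, with 19 of the 20 other endothelial genes tested (median -0.56), 16 of the 18 junction partners (median -0.19), and 7 of the 8 mural and fibroblast markers (median -0.65), and the part of vessel or mural content in the members' levels was not tested. Cdh5 overlapped between the groups, at 24.7, 36.1, and 62.0 CPM in VeWT and 11.1, 21.2, and 38.6 CPM in VeKO UUO kidneys. In CL kidneys 0% of genes and no member passed edgeR's test, 229 genes and no member had an unadjusted p under 0.05, DESeq2 and the exact test called none, and the members lay between -0.0034 (Plvap) and 0.42 (Emcn). Without G_3 the median of the members in CL kidneys was -0.06 and 6 of 10 were below 0. The response to UUO was called for 0% of genes and no member by edgeR, with 323 genes and 1 member at an unadjusted p under 0.05, and DESeq2 called none. The response of the members lay between -0.85 and -0.37. Without G_3, whose 10 members summed to 812 CPM, it was 0.09 for Plvap, -0.07 for Esam, and -0.37 for Eng, and the median of the members was -0.39.

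In UUO kidneys labelled PbKO against PbWT, 3 of the 10 members were lower (Pecam1, Cdh5, and Eng) and none was higher, where 18.6% of 10923 genes were called in either direction, 12.0% higher and 6.60% lower. The UUO libraries of PbWT held 31.2, 32.5, 41.0, and 39.0 CPM of Pecam1 and those labelled PbKO 26.8, 19.1, 11.1, and 25.0 CPM, with no overlap. Cdh5 did not overlap either, at 32.4, 29.6, 33.1, and 30.2 CPM against 13.4, 15.7, 12.8, and 24.2 CPM. All libraries labelled PbKO thus lay below all of PbWT for 2 of the 10 members, against 9.15% of all genes tested. Pecam1 fell by 0.90 (SE 0.25, edgeR adjusted p = 0.0131), Cdh5 by 0.86 (SE 0.23, edgeR adjusted p = 0.0100), and Eng by 0.66 (SE 0.22, edgeR adjusted p = 0.0385). Eng overlapped through 1 library labelled PbKO, F10 at 30.1 CPM, beside 20.5 to 21.8 CPM in the other 3. Without library A12, the lowest of the group for Pecam1 and Cdh5, no member was called (edgeR adjusted p = 0.0940 for Pecam1 and 0.0638 for Cdh5). With all 12 groups in 1 fit, where 2.64% of all genes were called, none of the 3 passed (edgeR adjusted p = 0.157 for Pecam1, 0.145 for Cdh5, and 0.477 for Eng), and in DESeq2 Eng did not (adjusted p = 0.0998). The Eng call was lost in 5 of the 16 fits that left out 1 library (C12, D12, E11, A12, or F12), with adjusted p up to 0.142. All 4 UUO libraries labelled PbKO held both Xist and Y-linked counts, as did 2 of the 4 of PbWT. A fit without such libraries was not made in this arm. Ehd3 was the only member above 0, at 0.33 ± 0.28, which did not pass (edgeR adjusted p = 0.456), and the median of the members was -0.46 against -0.02 for all genes.

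Other cell types moved with these differences. The summed leukocyte and platelet markers ran from 128 to 158 CPM in the UUO kidneys labelled PbKO and from 191 to 284 CPM in PbWT, and Ptprc, Itgam, Csf1r, and Adgre1 were lower. The summed mural and fibroblast markers ran from 187 to 419 CPM and from 389 to 529 CPM, and Pdgfrb, Dcn, and Acta2 were lower. The summed proximal tubule markers ran from 3483 to 6559 CPM and from 1967 to 2786 CPM. Whether these shifts bear on the levels of the members was not tested. Without TMM the median of all genes moved by -0.27 in this comparison, and Egfl7 was then also called (-0.62, edgeR adjusted p = 0.0200), where 6.01% of all genes were higher and 22.9% lower.

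In CL kidneys labelled PbKO against PbWT, 0% of genes and no member passed edgeR's quasi-likelihood test, 379 genes and no member had an unadjusted p under 0.05, and DESeq2 and the exact test called none. The members lay between -0.24 (Ehd3) and 0.41 (Eng). The response to UUO differed between the genotypes for 1 of 10 members, Eng, where 8.55% of all genes were called. The difference of its responses, PbKO minus PbWT, was -1.07 ± 0.34 (SE, edgeR adjusted p = 0.0484). This call was lost in 12 of the 16 fits that left out 1 library, in DESeq2 (adjusted p = 0.0747), without a filter on low counts (edgeR adjusted p = 0.0628), and with all 12 groups in 1 fit (edgeR adjusted p = 0.590). Over all genes 6.66% of the responses were called higher and 1.90% lower, and without TMM 2.86% and 6.12%. Cdh5 had a difference of -1.11 ± 0.37 (edgeR adjusted p = 0.0618) and Pecam1 of -0.84 ± 0.38 (edgeR adjusted p = 0.188). The response used the same UUO and CL libraries as the comparisons above and is not a separate sign of them.

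**Figure D4:**
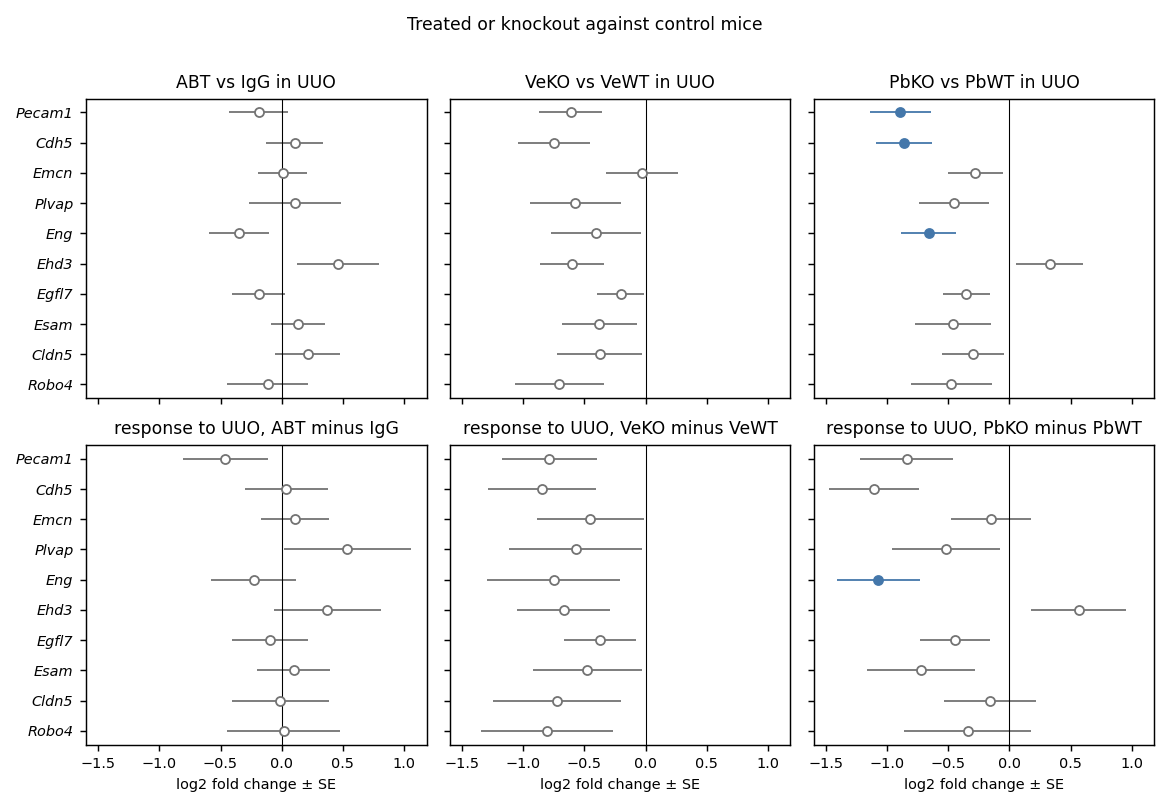
Log2 fold change of each gene on the x axis with its SE as bars, for treated or deleted against control mice in UUO kidneys and for the difference of the responses to UUO, in 3 arms. Blue filled symbols passed an adjusted p under 0.05 and open grey ones did not. Blue symbols stand only in the Pdgfb arm, for Pecam1, Cdh5, and Eng in UUO kidneys and for Eng in the response.

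Partners of the members were followed in lists. Of 19 junction partners 14 were tested in IgG mice, where Ctnna1 (0.36 ± 0.11), Tjp1 (0.59 ± 0.19), and F11r (0.41 ± 0.14) were among those that rose and Cgnl1, the gene of paracingulin, fell by 0.76 (SE 0.15, edgeR adjusted p = 8.87e-05). In PbWT mice 17 were tested, and Tjp1 (0.93 ± 0.21), Nectin2, Ctnna1, and Afdn were among those that rose, while Cgnl1 fell. Cgnl1 was also the one that fell in ABT, VeKO, and PbKO mice, with F11r alone rising in VeWT mice and Tjp1 among those that rose in ABT mice. In UUO kidneys labelled PbKO Tjp1, Jam2, and Afdn were lower than in PbWT. Most of these genes are also expressed by tubular epithelium.

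Of 14 genes of the endoglin receptor pathway 11 were tested in IgG mice, and Tgfbr2, the type II receptor of TGF-β, rose most clearly (1.44 ± 0.15, edgeR adjusted p = 2.49e-09), with the target gene Id3 (1.20 ± 0.21), Smad1, and Smad5 beside it and none falling. In PbWT mice Tgfbr2, Smad1, Smad4, Id3, and Bmpr2 rose, in VeWT and ABT mice Tgfbr2, Id3, and Smad1, in VeKO mice Tgfbr2, and in PbKO mice Id3. Tgfbr2, Bmpr2, and Smad4 were lower in UUO kidneys labelled PbKO than in PbWT, the comparison in which Eng was lower. Of the 6 Robo and Slit genes, Unc5b, the partner of ROBO4, rose in all 6 genotypes with fold changes between 1.09 and 1.48, in which Robo4 itself did not pass.

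Among 9 genes of caveolae and membrane shaping, Ehd4 (1.08 ± 0.17), Cavin1, and Ehd2 rose and Cavin2 (-1.56 ± 0.27) and Pacsin2 fell in IgG mice, and the same 5 genes moved the same way in PbWT mice. Ehd4, a paralog of Ehd3, rose in IgG, ABT, and PbWT mice, while Ehd3 lay below 0 there. Of 25 other endothelial genes, Ecscr rose in 5 of the 6 genotypes (1.60 ± 0.23 in IgG mice, edgeR adjusted p = 1.69e-06) and not in PbKO mice. Cd93 rose in IgG, ABT, and PbWT mice, and Flt1, a VEGF receptor, fell in IgG and PbKO mice. Cd93 and Flt1 were lower in UUO kidneys labelled PbKO than in PbWT. In PbWT mice 6 of the 17 tested rose, against 17.9% of all genes, led by Cd93 (1.75 ± 0.29) and Ecscr (2.14 ± 0.37). Of this list 9 of the 15 tested lay below 0 in IgG (median -0.02), 16 of 20 in VeKO (-0.31), and 12 of 17 in PbKO mice (-0.13). Above 0 lay 11 of 15 in ABT (median 0.23), 12 of 20 in VeWT (0.19), and 12 of 17 in PbWT mice (0.36). Ccl21a of the lymphatic endothelium was at 0 in every library.

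The members varied together across libraries of 1 group. After the mean of its group and form of name was taken from each library, log2 levels of 2 members correlated positively in 44 of 45 pairs over 75 libraries, with a median Pearson r of 0.32 and a range from -0.07 (Cldn5 and Eng) to 0.56 (Emcn and Cdh5). The points share their library, and with it depth, RNA content, and plate, and no test was made. The genes most like the 10 members by mean r were Ehd4 (0.47), Gsn (0.45), Ifitm2 (0.44), Serping1 (0.44), and Spon1 (0.43) of 9544 genes compared, whose median was 0.0032.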

How the data were processed

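Whole-kidney RNA of 75 samples was made into libraries by Smart-seq3, each run in 4 wells, pooled, and sequenced together. To make the counts the authors deposited, reads of the 4 wells were merged, mapped with STAR (2.7.3a), freed of duplicates by UMI-tools (1.1.4), and counted per gene with featureCounts of Subread (1.4.6-p5), and the submitters' processing notes name mm10. The deposited counts were not normalized. For the annotation and any use of strand, the sources used here give nothing.

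The counts were fitted in edgeR 4.0.16 under R 4.3.3 (TMM, filterByExpr by group, glmQLFit without legacy dispersions, glmQLFTest), 1 model for each of the 3 arms over its 4 groups, with limma 3.58.1 loaded by edgeR and DESeq2 1.42.0 as an alternative. P-values were adjusted by Benjamini-Hochberg over all genes tested in the arm (9579, 11916, and 10923), with a threshold of 0.05. The methods of the study name edgeR's exact test, run here as an alternative. Ratios used exact 2-sided permutation tests. Levels, ratios, and figures were made in Python 3.11.15 (pandas 2.3.3, numpy 2.4.6, matplotlib 3.10.9, scipy 1.17.1). The fit was tested on simulated data. Totals of 172827 to 2341800 counts set the precision.

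The members and lists were chosen with earlier results of these data known. All 10 members were named in the text, and of other lists up to 3 called genes with the lowest adjusted p per comparison, any gene a count of 5 or fewer refers to, the deleted genes, and the 5 genes most like the members. The results of 2 genes of these lists are not reported here. The lists of cell types were leukocytes and platelets, mural cells and fibroblasts, podocytes, proximal tubule, injured tubule, lymphatic endothelium, and adipocytes. Coordinates and windows before gene starts were taken from RefSeq and the GRCm38 annotation, the build of mm10.

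Numbers in library names were checked as a pairing. In ABTAA-treated mice libraries with the same number deviated from their group means together (r = 0.387, 0.199, and 0.160 for 9, 11, and 12), each over 0.1, and a replicate block was fitted. In the Veptp arm 7 of 8 pairs had r over 0.1 (0.058 to 0.426, mean 0.234 against -0.033 for unlike numbers), and as 1 pair did not, the number was taken as a number alone. Alternatives were no TMM, DESeq2, the exact test, no filter on low counts, all 12 groups in 1 fit, a covariate for the form of name, plain or split names alone, the block, other pseudocounts, permutation within forms, no libraries numbered 3, 4, 7, and 8 in the Veptp arm, and each library left out in turn. A fit without libraries with both Xist and Y-linked counts was chosen after seeing the data and was not made in the Pdgfb arm.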

Additional observations from a re-analysis of the deposited data

Results flagged for a closer look

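Of 144 combinations of a measure and a group that were large enough to examine, 8 held a library far from the rest of its group, by a rule that chance meets in about 1 of 20. Cdh5 was at 8.99 CPM in IgG UUO library P_8, beside 21.7 to 38.5 CPM in the others. Emcn was at 58.3 CPM in VeKO UUO library G8, beside 25.5 to 35.8 CPM. In the UUO kidneys labelled PbKO, Eng was at 30.1 CPM in library F10 beside 20.5 to 21.8 CPM, and Egfl7 was at 87.4 CPM in library F12 beside 50.2 to 53.9 CPM. Esam was at 18.2 CPM in ABT UUO library C7, beside 28.1 to 37.7 CPM. Cldn5 was at 0 CPM in VeKO UUO library D8, beside 10.3 to 25.2 CPM, and Robo4 was at 0 CPM in IgG CL library A6, beside 7.21 to 22.2 CPM. D8 and A6 were shallow, with 221258 and 383692 counts. The log2 ratio of Ehd3 to Cdh5 was 1.61 in VeWT CL library G_7, beside -0.13 to 0.56 in the others. The response of Eng to UUO differed between the genotypes of the Pdgfb arm by -1.07 (edgeR adjusted p = 0.0484). The causes of these values were not tested.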

How the results depend on the processing

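The number of members called was compared with its value under each alternative. The share of all genes called in the same fit, in either direction, follows each count in parentheses, and in the reported comparisons it was 34.5% in IgG, 25.1% in ABT, 18.4% in VeWT, 7.96% in VeKO, 37.3% in PbWT, and 6.37% in PbKO mice. With all 12 groups in 1 fit it was 1 in IgG (28.0%), 0 in ABT (20.4%), and 1 in VeWT mice (26.1%) for UUO against CL, and 0 for PbKO against PbWT in UUO kidneys (2.64%) and for the response of that arm (0.0819%). DESeq2 gave 0 in ABT mice (11.1%) and 0 for the response of the Pdgfb arm (3.59%), and the exact test gave 0 in VeKO mice (5.90%). Without TMM it was 1 in VeWT (16.2%), 0 in VeKO (7.18%), and 6 in PbWT mice (51.3%) and 2 for the response of the Pdgfb arm (8.97%). Without a filter on low counts it was 0 in ABT mice (12.5%), 1 in PbKO mice (Esam, 3.48%), and 0 for that response (3.91%). A covariate for the form of library name gave 5 in IgG (40.3%) and 1 in VeWT mice (33.9%). Libraries with split names alone gave 0 in IgG (29.1%), 0 in ABT (24.0%), and 1 in VeWT mice (25.6%), and those with plain names gave 0 in IgG (23.3%), 0 in ABT (11.6%), and 0 in VeKO mice (0%), where Esam reversed to 0.58. Without libraries holding both Xist and Y-linked counts it was 0 in IgG (23.6%) and 0 in ABT mice (16.3%), and without the libraries numbered 3, 4, 7, and 8 it was 0 in VeKO mice (0.979%). In VeKO mice it was 3, with Esam lower beside Emcn and Ehd3, with all 12 groups in 1 fit (14.7%), with the covariate (21.5%), in split names alone (21.1%), and without libraries holding both Xist and Y-linked counts (7.67%). The causes were not tested, though the fits of 1 form and those without libraries rest on fewer samples.

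With the number as a replicate block, 2 members were called among the 6 paired ABT libraries (31.3% of all genes), against 1 without the block (24.3%), and in the Veptp arm, where the pairing by number does not hold for every number, 2 were called in VeWT mice (Emcn and Esam lower, 23.0% of all genes) in place of Egfl7 in the same libraries without the block, and 3 in VeKO mice (Emcn, Ehd3, and Esam lower, 26.4%), the same 3 as without it. The block changed no call of a member in the other comparisons of that arm. There 7 of 8 pairs with the same number had r over 0.1, and 4 of 8 CL libraries correlated best with the UUO library of their own number.

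With 1 library left out at a time, the number of members called ranged from 0 to 3 in IgG, 0 to 2 in ABT, 0 to 3 in VeKO, 2 to 3 in PbWT, and 0 to 1 in PbKO mice, from 0 to 3 for PbKO against PbWT in UUO kidneys, and from 0 to 1 for the response of that arm, and it was 0 in the other comparisons throughout. The share of all genes called in each of these fits is not listed. The difference in the ratio of Ehd3 to Cdh5 ranged from -1.33 to -0.81 in ABT, from -1.32 to -0.71 in VeKO, and from -0.41 to 0.12 in PbKO mice, and that of Plvap to Cdh5 from -0.29 to 0.31 in VeKO and from -0.28 to 0.20 in PbKO mice. Leaving out 1 library brought the difference in the ratio of Ehd3 to Cdh5 past the threshold once in ABT and once in VeKO mice. Pseudocounts of 0.5 and 5 CPM and permutation within the forms of library name changed no call of a ratio. Counts of 1 to 271 per gene and library, or 0 for Cldn5 and Robo4 in a few, limit what single genes can show, and fold changes of PbWT mice near 0 (Emcn, Esam, and Cldn5) turned positive without TMM.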

Other observations

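Markers of other compartments that were not described above also moved with UUO. Injured tubule markers rose for 6 of 6 genes in each of IgG, ABT, VeWT, PbWT, and PbKO mice and for 5 of 6 in VeKO mice, with a median log2 fold change of 2.96 in IgG mice. Proximal tubule markers fell for 7 of 7 genes in IgG and PbWT mice, for 6 of 7 in ABT, for 4 of 7 in VeWT and PbKO, and for 3 of 7 in VeKO mice. Mural and fibroblast markers rose for 4 of 6 genes tested in IgG (against 16.3% of all genes) and ABT mice (12.6%). They rose for 5 of 8 in VeWT (10.0%) and 4 of 7 in PbWT mice (17.9%). None of 8 rose in VeKO (4.47%) or of 7 in PbKO mice (3.95%). Their median log2 fold change was 1.18 in IgG, 1.28 in ABT, 1.18 in VeWT, 1.51 in PbWT, 0.03 in VeKO, and 0.49 in PbKO mice. Whether they bear on the members was not tested. The summed injured tubule markers ran from 14166 to 20056 CPM in PbWT UUO kidneys and from 9613 to 17758 CPM in those labelled PbKO. A VeKO CL library reached a sum of 16855 CPM of these markers, above the lowest VeKO UUO library at 6692 CPM, while the median of VeKO CL kidneys was 2771 CPM. The reported comparisons with VeKO CL kidneys include this library. Lymphatic markers were sparse, and of the 5 adipocyte markers Cfd rose in IgG mice (3.15 ± 1.15, edgeR adjusted p = 0.0307) and fell in PbWT mice (-3.98 ± 1.44, edgeR adjusted p = 0.0321), with summed levels of the list between 0 and 393 CPM in IgG UUO kidneys.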
